A study of Mus musculus with 5 samples.

Results

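Cytosolic ribosomal protein genes were followed in mouse peritoneal macrophages after poly IC, with and without ethanol. A gene was a member if a probe set (the group of short probes for 1 transcript) carried 1 gene symbol that starts with Rpl or Rps and a digit, or was Rplp0, Rplp1, Rplp2 or Rpsa. The S6 kinase genes were left out. This gave 35 genes, measured by 49 probe sets, of 8251 genes with 1 symbol on the Affymetrix MG-U74Av2 array. Where a gene had several probe sets, the one with the highest mean signal stood for it. Of the 35 genes, 17 have symbols of the large ribosomal subunit (Rpl) and 18 of the small subunit (Rps), a split made by symbol alone. Of the stalk genes named in the rule, Rplp0 alone was a member, and Rplp1 and Rplp2 were not members.

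The 5 arrays came from 1 untreated (naive) sample, 2 samples of mice given poly IC and 2 of mice given poly IC plus ethanol. Poly IC, a synthetic double-stranded RNA, is sensed by cells as viral RNA, and the question of the series is what acute oral ethanol does to its gene induction. Per the labels, each treated sample was a pool of female C57Bl/6 x C3H F1 mice aged 12 weeks. The labels give 0.1 mg poly IC per mouse for the second poly IC pool and both ethanol pools, and 6 g ethanol per kg for the ethanol pools. The poly IC dose of the first poly IC pool and the sex, age and pooling of the naive sample are not stated in the sources used here, nor are the time after treatment, the route of poly IC or the number of mice per pool. The p-values therefore measure only the spread between pools, and any such difference of the naive sample cannot be told apart from poly IC. No sample had ethanol alone. In bulk samples such as these, fewer cells of a type and less RNA per cell cannot be told apart. The median signal of an array lay between 769 and 902, the number of arrays limited the precision, and values are signals that the submitters scaled globally to 2500. Of 15 tested macrophage markers, 4 rose and 2 fell between poly IC and naive, against 31.8% of all tested genes called. Lyz2 (73144 to 81816 over the 5 arrays), Cd68 (25163 to 27474) and Csf1r (26448 to 34885) were not called, while Gata6, a factor of resident peritoneal macrophages, fell from 7218 to 1169 and 1531 (-2.23), Mertk fell (-0.80), and Cd14 (1.53), Fcgr1 (3.06), Msr1 (1.01) and Cebpb (0.70) rose.

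A ribosome joins ribosomal RNA and ribosomal proteins, most of them in 1 copy, so cells make these proteins in balanced amounts. Their messenger RNAs are among the most abundant of any growing cell. Most of these messengers begin with a run of pyrimidines (C or T bases), the 5′ terminal oligopyrimidine or TOP tract, through which mTOR signalling and the binding protein Larp1 set how much of each is translated. Control of the set is therefore known to act largely on translation, which arrays do not measure. Several members have reported roles outside the ribosome in macrophages: Rpl13a is released from the ribosome to silence inflammatory messengers after interferon-gamma, and Rps3 binds NF-kB.

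RefSeq start-site windows (build GRCm38.p6) were found for 28 of the 35 members, 7 of them with several starts. The stretches shown run from 15 bases before to 15 bases after the annotated start, and capitals mark the longest run of C and T. They are the starts of the 3 members called between poly IC and naive (Rpl22, Rps27, Rpl7l1), of Rpl13a, whose place after interferon is described above, and of 4 bright members that were not called in any of the 3 comparisons as fitted here (Rpl7a was called under quantile normalization), so that the tracts can be set beside the values. The examples were picked after the sequences were seen, and the first start listed was used for Rpl22, which has 2.
Rpl22 (chr4:152325711-152325740, + strand): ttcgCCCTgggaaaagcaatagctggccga
Rpl7l1 (chr17:46782642-46782671, - strand): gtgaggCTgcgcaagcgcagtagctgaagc
Rpl13a (chr7:45128731-45128760, - strand): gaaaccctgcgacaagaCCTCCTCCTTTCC
Rps27 (chr3:90213634-90213663, - strand): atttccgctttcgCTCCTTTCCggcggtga
Rpl7a (chr2:26910792-26910821, + strand): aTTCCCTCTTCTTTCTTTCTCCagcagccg
Rplp0 (chr5:115559452-115559481, + strand): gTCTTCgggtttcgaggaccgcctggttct
Rps10 (chr17:27635230-27635259, - strand): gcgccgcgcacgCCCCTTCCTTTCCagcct
Rps18 (chr17:33955651-33955680, - strand): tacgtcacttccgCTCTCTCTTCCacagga

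The longest run was 21 bases at Rpl7a, 13 at Rpl13a and Rps10, 11 at Rps18 and 9 at Rps27, against 5 at Rplp0, 4 at Rpl22 and 2 at Rpl7l1. The run at Rpl13a ends at the last base of its window, so its 13 bases are a minimum. A run of at least 6 such bases lay in 15 of the 37 member windows (40.5%) and in 29.2% of all 32851 windows of that length in the table. Annotated starts can lie some bases from the true start, so a tract just outside the window is missed. In the longer windows of 300 bases, the ETS-factor motif CCGGAAG, on either strand, lay in 12 of 37 member windows (32.4%) and in 8.86% of all windows. The YY1 motif AAGATGG, on either strand, lay in 9 of 37 (24.3%) and in 6.34% of all windows. The windows with the YY1 letters belonged to Rpl13a, Rpl22, Rpl35a, Rpl7a, Rpl7l1, Rps27 and Rps7, which include the 3 called members. They also include the uncalled bright members Rpl7a and Rps7. TATAAA lay in 4 of 37 (10.8%) and in 13.6% of all windows. Each match is a description of letters in a window.

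The members' levels fell into 3 classes with a wide gap, from 6223 to 22699 in mean signal, between the first and the second. The 19 bright members had mean signals of 22699 to 143842. The 7 lower members had mean signals of 600 to 6223. Probe sets of the other 9 had mean signals of 70 to 426 and did not pass the filter on low signal, which removed probe sets with a mean below 513 and kept 26 members among 5581 tested genes. The median mean signal of all tested genes was 2415. Of the 100 genes with the highest mean signal, 17 were members, and of the first 10, 3 were. Bright members together made up 3.75% of the summed signal of the naive array, 3.49% on either poly IC array, and 3.59% and 3.62% on the ethanol arrays. Levels of different probe sets also reflect how well each set hybridises, so the order of members is not an order of messenger abundance.

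**Figure D1:**
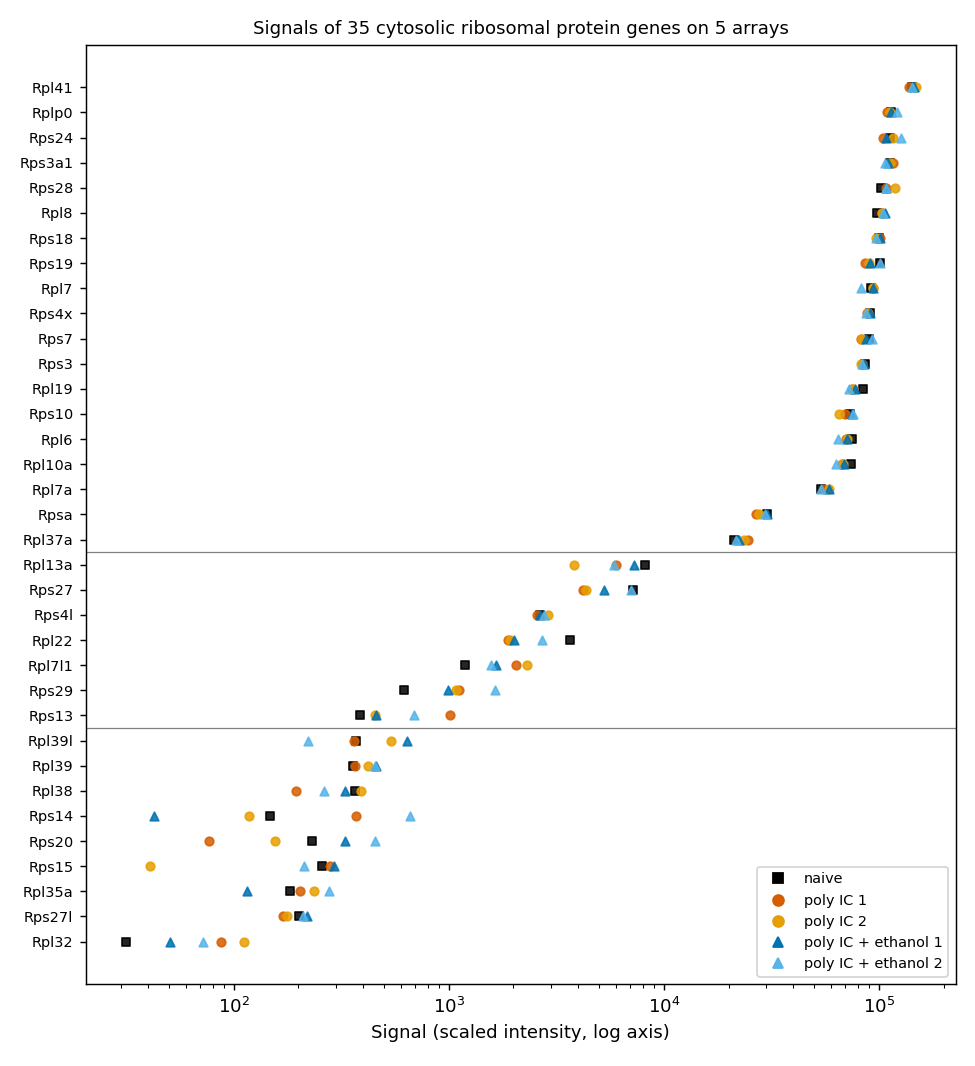
Signal of each of the 35 members (rows, ordered by mean signal) on the 5 arrays, on a log axis; squares are the naive array, circles the 2 poly IC arrays and triangles the 2 poly IC plus ethanol arrays, and grey lines separate the bright, lower and not passing classes. The points of each of the 19 bright genes nearly coincide, with at most a 1.21-fold gap between its highest and lowest array, while those of the lower genes spread by up to 2.64-fold.

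On the probe set that stood for each gene, bright members hardly varied across the 5 arrays. The highest array exceeded the lowest by 1.05-fold to 1.21-fold among them, with a median of 1.14-fold. Rpl41, which encodes the smallest ribosomal protein, was the highest member on every array, at 142823 in the naive sample, 138732 and 148937 with poly IC, and 145362 and 143354 with poly IC plus ethanol. The naive value lay between the 2 poly IC values, and the ethanol values lay between them as well.

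Among large-subunit proteins, Rplp0, the base of the stalk that recruits elongation factors, was 114172 in the naive sample, 108957 and 112724 with poly IC, and 113443 and 121580 when ethanol was added. Rpl8, which lies near the peptidyl transferase centre, was 97813, then 103743 and 103074 with poly IC, and 107037 and 104609 when ethanol was added. Both ethanol arrays were above both poly IC arrays for either gene, by 0.08 log2 units for Rplp0 (SE 0.08, limma adjusted p = 0.565) and by 0.03 for Rpl8 (SE 0.08, adjusted p = 0.843). Rpl19 went the other way against naive, from 84452 to 75187 and 75977 with poly IC and to 77224 and 72846 when ethanol was added. Its naive value was the highest of the 5, yet the difference between poly IC and naive was -0.16 (SE 0.10, adjusted p = 0.276). Rpl6, Rpl10a, Rpl7 and Rpl7a had mean signals from 56248 to 91328 and differences between poly IC and naive from -0.13 to 0.08.

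Among small-subunit proteins, Rps3, which takes part in messenger entry and also binds NF-kB, was 86734 in the naive sample, 83467 and 82692 with poly IC, and 85580 and 83679 when ethanol was added. The difference between poly IC and naive was -0.06 (SE 0.10, adjusted p = 0.678), and all 5 values lay within 1.05-fold. Rps19, whose human counterpart is mutated in Diamond-Blackfan anaemia, was 101764, then 86201 and 89762 with poly IC, and 90829 and 101040 when ethanol was added. The naive array was the highest, and the difference of -0.21 (SE 0.11, adjusted p = 0.167) was the lowest of the bright members. Rps18 and Rps4x also stayed within 1.05-fold. Rpsa, also known as the laminin receptor precursor, was 30343, then 26720 and 27729, and then 30078 and 29446. Its poly IC values were the lowest pair, at -0.16 against naive (SE 0.13, adjusted p = 0.398).

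Poly IC against naive was the comparison with the most calls in the whole series, 1775 of 5581 genes at an adjusted p under 0.05 (31.8%). Of the 26 members that passed the filter, 3 were called (11.5%), 1 higher and 2 lower. None of the 19 bright members was called, at either the adjusted or the unadjusted level of 0.05. Over the 26 members the median difference was -0.033 log2 units, against -0.156 for all genes, and the median absolute difference was 0.116 against 0.481. The differences of bright members lay between -0.21 and 0.19, and no 95% interval among them reached beyond 0.49 in either direction, a limit set by the spread between pools. This rests on the global scaling: with quantile normalization 4 bright members were called lower, Rps19 (-0.31, limma adjusted p = 0.0314), Rpl19 (-0.30, adjusted p = 0.0337), Rpsa (-0.48, adjusted p = 0.0105) and Rpl7a, which turned from 0.08 to -0.29 (adjusted p = 0.0479). Of all genes 30.5% were then called. The members' median under quantile normalization was -0.189, and with each array centred on its median it was 0.158, so its sign is not settled. These are counts and medians of genes chosen by name, so they carry no test of the set. The naive array is a single sample and was assumed to vary like the pools.

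Other genes with a high mean signal are given for reference only. Of the 301 other genes with a mean signal of at least 20000, a limit chosen after the levels were seen, 169 were called between poly IC and naive (56.1%). Of the 71 other genes at or above 50000, 35 were called (49.3%), and 0 of the 17 members in that range were. These are not matched controls: the limit is on the mean of the 5 arrays, so a gene that changed strongly can enter through the group where it is high, as S100a8 (564 naive, 56818 and 40341 with poly IC) and Cd79b (62100 naive, 5064 and 3808) did, which raises these shares. Whether the brightest probe sets came near a ceiling of the scanner cannot be read from the deposited signals. The pools of 1 treatment were also closer for the bright members than for genes in general, with a median absolute log2 difference between the 2 poly IC arrays of 0.049 against 0.106 for the other 301 and 0.173 for all tested genes.

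**Figure D2:**
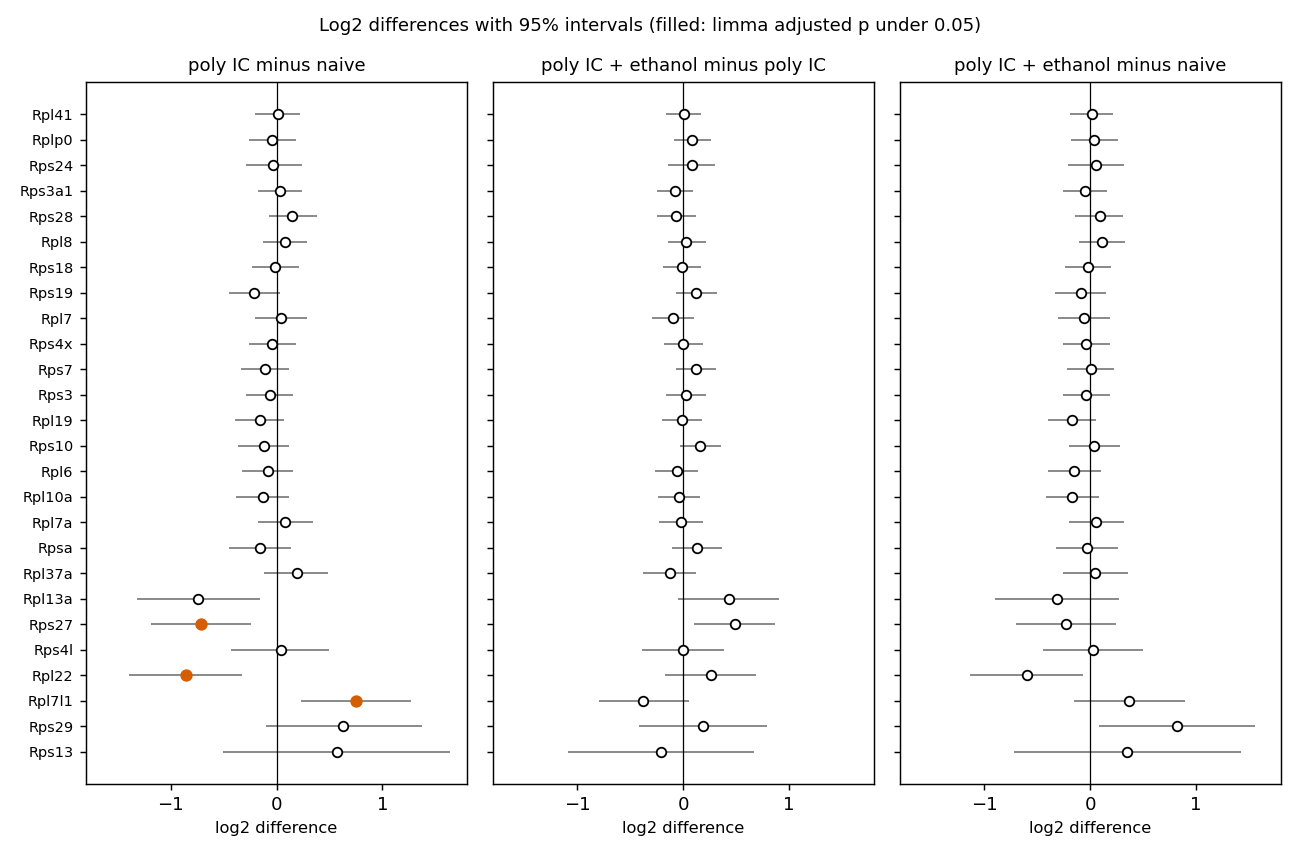
Log2 differences (horizontal axes, on the log2(signal + 250) scale) of the 26 members that passed the filter, with 95% intervals from limma, in the 3 comparisons; filled points have an adjusted p under 0.05. Intervals of the bright genes, listed from Rpl41 to Rpl37a, all include 0, and the 3 filled points are Rps27, Rpl22 and Rpl7l1 for poly IC minus naive.

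The 3 called members were all in the lower class. Rpl22, an RNA-binding protein of the large subunit that is dispensable for translation in general, fell from 3677 on the naive array to 1883 and 1932 with poly IC (log2 difference -0.86, SE 0.24, adjusted p = 0.0195). With ethanol it was 2010 and 2713, both above the poly IC pair and below the naive value. Its second probe set did not follow: it was at 806 on the naive array, at 1049 and 862 with poly IC, and 891 and 1237 when ethanol was added, a difference of 0.19 between poly IC and naive. Averaging both probe sets gave -0.34 (adjusted p = 0.34). The Rpl22 call was also lost without a filter (adjusted p = 0.0501), with arrays centred on their median (-0.67, adjusted p = 0.0557) and with quantile normalization (-0.68, adjusted p = 0.0506). Of all genes, 18.3%, 28.4% and 30.5% were called in these fits, in that order.

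Rps27, a zinc-finger protein of the small subunit, fell from 7187 to 4218 and 4350 (-0.71, SE 0.21, adjusted p = 0.0281). With ethanol it was 5293 and 7030, again between the poly IC pair and the naive value. A brighter probe set that names Rps27 together with its retrogene Rps27rt, and so was not used, was at 87496 on the naive array, 88619 and 95220 with poly IC, and 87500 and 86844 when ethanol was added. That probe set differed by 0.07 between poly IC and naive, so the fall was seen on only 1 of the 2 probe sets for this gene. The Rps27 call was also lost with arrays centred on their median (-0.52, adjusted p = 0.0915), with quantile normalization (-0.61, adjusted p = 0.0517) and with eBayes without the trend (adjusted p = 0.0753). The paralogue Rps27l, a p53 target, did not pass the filter, at 170 to 218 on the 5 arrays.

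Rpl7l1, a paralogue of Rpl7, rose from 1194 to 2064 and 2309 (0.75, SE 0.23, adjusted p = 0.0333). With ethanol it was 1667 and 1580, between the naive and the poly IC values. Its bright relative Rpl7 was 91576, then 94380 and 94140, and then 93864 and 82679, a difference of 0.04 between poly IC and naive. Rpl7l1 had no other probe set, and its call was lost without a filter (adjusted p = 0.0875), where 18.3% of all genes were called. Leaving out poly IC replicate 1 or 2 ended all 3 calls, and fewer of all genes were called then. The differences kept their sign and lay between -0.88 and -0.69 for the falls and between 0.68 and 0.82 for the rise.

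Rpl13a came close to the threshold. It was 8173 in the naive sample, 5976 and 3828 with poly IC, and 7276 and 5861 when ethanol was added (poly IC against naive -0.74, SE 0.26, adjusted p = 0.0548). The second ethanol pool lay between the poly IC pools. Without poly IC replicate 1 the difference was -1.05, and without replicate 2 it was -0.44. Leaving out ethanol replicate 1 or 2 left it at -0.74. Whether Rpl13a was called depended on which array was left out. The other lower members did not pass either. Rps29, a small zinc-finger protein, was 618, then 1118 and 1078, and then 997 and 1634 (0.63, SE 0.33, adjusted p = 0.174). Rps4l, a paralogue of Rps4x, stayed between 2561 and 2891 throughout. Rps13 was at 387, then 1012 and 455, and then 458 and 688, so that its poly IC pools differed more than its groups.

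**Figure D3:**
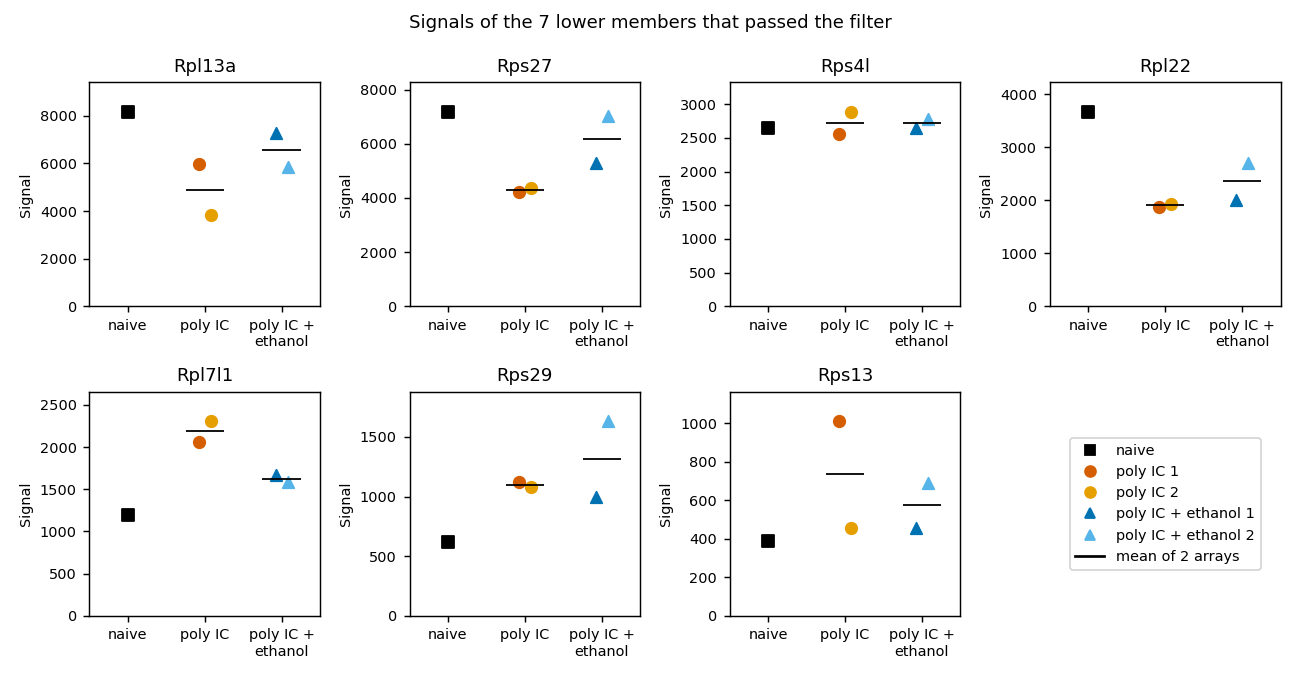
Signals (vertical axes from 0, scaled intensity) of the 7 lower members on each array, with the mean of the 2 arrays of a treated group as a bar. Rpl22 and Rps27 are lower on both poly IC arrays than on the naive array, Rpl7l1 is higher, and the ethanol arrays of these 3 genes lie between the poly IC arrays and the naive array.

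Markers of other cell types moved in the same comparison. Of 13 tested B cell markers, 11 fell, and their summed signal was 383245 in the naive sample, 166305 to 181824 with poly IC and 232488 to 249895 with ethanol. Of 12 tested neutrophil markers, 8 rose and 1 fell, and their summed signal was 23901, then 101108 to 138254, and then 39071 to 46345. The defining B cell gene Cd79b was at 62100 in the naive sample, and the neutrophil gene S100a8 was at 564 there and at 40341 to 56818 with poly IC. Of 3 tested erythroid markers, 2 rose, the haemoglobin genes Hba-a1 (4.42) and Hbb-b2 (3.10), and the summed signal of the 7 on the array was 2654 in the naive sample, 19505 and 35559 with poly IC, and 13539 to 21016 after poly IC plus ethanol. Of 6 tested T and NK cell markers 1 rose and 1 fell, and of 5 tested mast cell markers 1 rose, against 31.8% of all genes called. The mast cell gene Cma1 differed between the 2 poly IC pools, at 17658 and 4237. The part of all these cells in the values of Rpl22, Rps27 and Rpl7l1 was not tested. Bright members varied by at most 1.21-fold across the same arrays. The probe sets for 18S ribosomal RNA, the RNA of the small subunit, differed far more: the one at the 3′ end was at 7277 in the naive sample, 5113 and 66548 with poly IC, and 8225 and 19415 when ethanol was added. Between the 2 poly IC arrays, where this signal differed 13-fold, the median absolute difference of the bright members was 0.049 log2 units.

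Poly IC plus ethanol against poly IC gave no call among the 26 members, against 590 of all 5581 genes (10.6%) and 24.6% of the 301 other genes at or above 20000. As above, these 301 genes are not matched controls, since a gene that changed can enter through the group where it is high. By limma 1 member, Rps27, had an unadjusted p under 0.05 (0.49, SE 0.17, adjusted p = 0.11). The members' median was 0.005, against 0.075 for all genes. No 95% interval of a bright member reached beyond 0.38. Both ethanol arrays lay on one side of both poly IC arrays for 13 of 26 members, 9 above and 4 below, and for 54.7% of all tested genes, so the members' share was close to the background. The 9 above were Rplp0, Rpl8, Rps19, Rps7, Rps3, Rps10, Rpsa, Rps27 and Rpl22, and the 4 below Rps3a1, Rpl7, Rpl37a and Rpl7l1. Among bright members the largest of these differences was that of Rps10, at 69759 and 65604 with poly IC and 75403 and 76060 when ethanol was added (0.16, SE 0.09, adjusted p = 0.278). Rpl7l1 had the lowest difference, -0.38 (SE 0.19, adjusted p = 0.247). Rpl13a differed by 0.43 (SE 0.21, adjusted p = 0.24). With ethanol replicate 1 or 2 left out, Rps27 differed by 0.68 or 0.29 and Rpl13a by 0.28 or 0.58. Each was called in the fit with its larger value, and more of all genes were called in these fits too.

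Poly IC plus ethanol against naive also gave no call among the members, against 929 genes in all (16.6%) and 37.9% of the other genes at or above 20000. Those other genes are again not matched controls. Here 2 members had an unadjusted p under 0.05 by limma, Rpl22 at -0.60 (SE 0.24, adjusted p = 0.119) and Rps29 at 0.82 (SE 0.33, adjusted p = 0.126). The median was -0.007 against -0.108 for all genes, and the bright members lay between -0.17 and 0.11. Without ethanol replicate 1 Rps29 differed by 1.12, and without replicate 2 Rpl22 differed by -0.80. Each was then called, and more of all genes were called in these fits too. The naive array lay outside the range of all 4 treated arrays for 17 of 26 members, 10 times as the highest and 7 times as the lowest, and for 66.3% of all tested genes. The 3 comparisons share arrays, so their values are not independent.

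Members measured by several probe sets showed how far a value depends on the probe set. Rps28 had 2 bright sets, with differences between poly IC and naive of 0.15 and -0.07, neither beyond the range of the other bright members. The 2 sets of Rpl10a, both bright, gave -0.13 and -0.41. The second was at 38671 on the naive array and at 30379 and 27910 with poly IC, and its difference lay beyond the range of the bright members. Rps4x had 5 sets, 1 at 89217 and 4 at 55 to 960. The second of them was at 58.5 on the naive array, 1531 and 2430 with poly IC, and 559 and 223 when ethanol was added, while the bright set stayed within 1.05-fold. Averaging the passing sets of Rps4x therefore gave 1.39 between poly IC and naive (adjusted p = 0.00172), where the bright set gave -0.04. The platform table also lists 1 source sequence for both the Rpl7 and the Rps24 probe set, so the naming of these 2 is uncertain. Other sets of these genes, from different source sequences, had mean signals of 440 (Rps24) and 85 (Rpl7), and neither passed the filter. The counts of bright members include both bright sets. Ribosomal protein genes have many near-identical processed pseudogenes, and probe sets for Rpl41 and Rps28 carry the suffix that marks probes shared within a gene family.

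Of the 9 members that did not pass the filter, 4 exceeded the highest of 19 control probe sets for unspiked RNAs on 0 of the 5 arrays. These 4 were Rps15, Rpl35a, Rps27l and Rpl32, with mean signals of 70 to 217. The others were Rpl39l, a paralogue of the exit-tunnel protein gene Rpl39, at 221 to 638, Rpl39 itself at 357 to 460, Rpl38 at 195 to 390, Rps14 at 42.4 to 657 and Rps20 at 76.5 to 453. Of these, Rpl39 exceeded the controls on 4 of 5 arrays, Rpl39l and Rpl38 on 3, Rps20 on 2 and Rps14 on 1. Without a filter on low signal none of the 9 was called in any of the 3 comparisons. Of all genes 18.3% were then called between poly IC and naive, 3.93% between ethanol and poly IC and 7.82% between ethanol and naive.

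A further 39 probe sets name a ribosomal protein gene together with pseudogenes or other genes, for 31 ribosomal protein symbols, and are outside the members. The 23 of them with a mean signal of at least 20000 were not in the fit and have no test. Their differences between poly IC and naive had a median of -0.08 and lay between -0.46 and 0.20, and those between ethanol and poly IC lay between -0.14 and 0.19. Rps6, the target of the S6 kinases, was at 115493 in the naive sample, 107301 and 109151 with poly IC, and 107763 and 123847 when ethanol was added. The stalk protein gene Rplp1 was at 109930, then 111757 and 111521, and then 106020 and 113981. The lowest difference was on 1 of 2 sets for Rpl27a, at 43257, then 31762 and 30846, and then 35634 and 35924.

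Genes that share the TOP tract or build the ribosome were followed from lists chosen with earlier results of these data known. Counts in these lists are to be read against the shares over all genes, 31.8% called between poly IC and naive (654 higher and 1121 lower of 5581) and 10.6% between ethanol and poly IC. Of 20 tested translation factors and other TOP genes, 2 fell and none rose with poly IC (median -0.13), Nap1l1, a histone chaperone, by 1.27 (SE 0.20) and the helicase gene Eif4a2 by 0.71 (SE 0.15). The elongation factor gene Eef1a1, as bright as the brightest members, was at 127474, then 133128 and 143012, and then 137399 and 135695. Of 55 tested mitochondrial ribosomal protein genes, 4 fell and none rose (median -0.26), namely Mrpl34 (-1.24), Mrpl18 (-1.13), Mrpl51 (-0.72) and Mrps14 (-0.62). Without ethanol replicate 1, or without replicate 2, 15 of the 55 fell and 1 rose, while 42.2% and 42.4% of all genes were called. With quantile normalization 5 of the 20 TOP genes fell. With ethanol against poly IC, 1 of the 20 TOP genes fell, the helicase gene Eif4a1 (-0.65, SE 0.18, adjusted p = 0.0436), and 1 mitochondrial ribosomal protein gene rose, Mrpl34 (0.78, SE 0.19, adjusted p = 0.0328). Fau, which encodes a small-subunit protein fused to a ubiquitin-like protein, was at 426, then 568 and 633, and then 753 and 750, and passed no test.

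Ribosome assembly genes differed from the ribosomal proteins in their counts. Of 42 tested, 25 rose and 2 fell between poly IC and naive, with a median of 0.74, against 31.8% of all genes called. Of the 26 members, 1 rose, the Rpl7 paralogue Rpl7l1 (0.75), which counts as a member by its symbol alone. Rcl1, needed for processing of small-subunit RNA, rose from 2142 to 10494 ± 255 (SD, n = 2; 2.17, SE 0.18, adjusted p = 1.67e-05). Nop58, a core protein of box C/D particles, rose by 1.87 (SE 0.19) and Rrs1, which acts in large-subunit assembly, by 1.31 (SE 0.21). The 2 that fell were Nop10 (-0.45) and Imp3 (-0.60). With ethanol against poly IC 16 of the 42 fell and none rose (median -0.54), against 10.6% of all genes called. Rcl1 was then 5186 ± 268 (n = 2; -0.98, SE 0.15), and Gar1, Nop56 and Ddx21 fell by 0.99, 1.02 and 1.01. With ethanol against naive 5 were higher and 1 lower (median 0.09), against 16.6% of all genes called. The 2 comparisons share the poly IC arrays, so a chance deviation of those arrays enters both with opposite sign. With poly IC replicate 1 or 2 left out, fewer rises and fewer ethanol falls were called, and fewer of all genes were called too. The medians were then 0.63 and 0.74 between poly IC and naive, and -0.52 and -0.56 between ethanol and poly IC. By eBayes without the trend there were 17 rises and 0 ethanol falls, with 27.1% and 1.54% of all genes called. Without a filter there were 19 and 9 of 44 genes, with 18.3% and 3.93% of all genes called. The medians stayed between 0.58 and 0.93 and between -0.64 and -0.47 over the alternatives. Neutrophil and B cell markers moved in the same comparisons and erythroid markers in that of poly IC with naive, and their part in this was not tested.

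**Figure D4:**
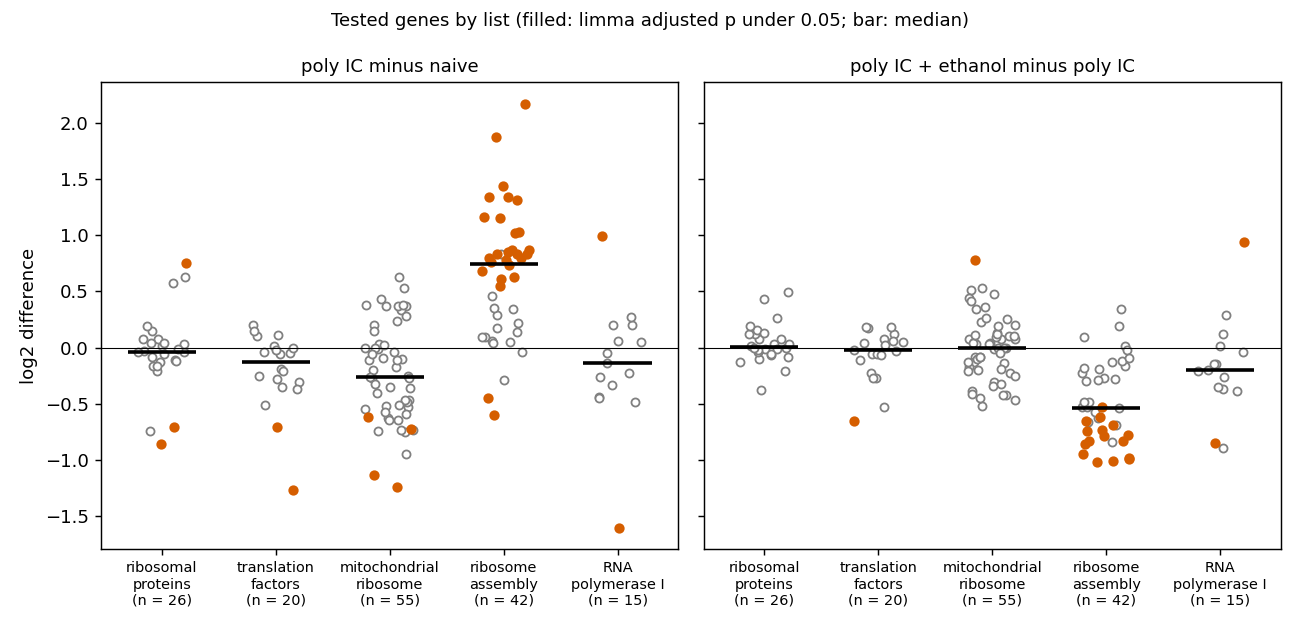
Log2 differences (vertical axis) of tested genes in 5 lists for poly IC minus naive and for poly IC plus ethanol minus poly IC; each point is a gene, filled points have an adjusted p under 0.05, and bars are medians. Ribosomal proteins, translation factors and mitochondrial ribosomal proteins have medians between -0.26 and 0.005 in both panels, those of RNA polymerase I -0.14 and -0.20, and ribosome assembly genes 0.74 and -0.54.

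Regulators of ribosomal protein messengers were among the called genes. Larp1, which binds TOP tracts, rose from 7096 to 20341 ± 2110 with poly IC (SD, n = 2; 1.48, SE 0.17, adjusted p = 0.000125) and was 13052 ± 817 with ethanol (-0.63 against poly IC, SE 0.14, adjusted p = 0.0189). Myc, which drives transcription of ribosome genes, rose by 0.98 and its partner Max by 1.11 (SE 0.18), and Mxd1, which competes with Myc for Max, rose from 221 to 8139 and 6533, with 1821 and 1813 with ethanol added. Sesn1, an inhibitor of mTOR signalling, fell from 13403 to 924 and 997 with poly IC, and was 3506 and 3135 with ethanol added. The translation repressors Eif4ebp1 and Eif4ebp2, which mTOR inactivates, fell from 1927 to 495 and 544 and from 9611 to 4989 and 4471. Yy1, whose motif is described above, fell by 1.35 (SE 0.22, adjusted p = 0.00117), and a link between it and the members was not tested. The kinase genes Akt1 (-0.89, SE 0.25) and Pdpk1 (-0.91, SE 0.21), whose products act upstream in mTOR activation, fell too, as did Mxi1 (-0.91, SE 0.28), another competitor of Myc. In all, 4 of 18 tested genes of this list rose and 7 fell between poly IC and naive, against 31.8% of all genes called. The median of the list was -0.69, and between -0.71 and -0.62 with 1 array left out. Over the other alternatives it ranged from -0.77 with an offset of 64 to -0.50 with arrays centred on their median. The number of falls changed with the array left out, as did the share of all genes called. Of 15 tested genes of RNA polymerase I, which makes the large ribosomal RNAs, 1 rose, the initiation factor gene Rrn3 (0.99, SE 0.23, adjusted p = 0.00933), and 1 fell, Polr2e, whose product is shared by all 3 nuclear polymerases (-1.60, SE 0.23). These 2 of 15 are below the share of all genes called (31.8%). Between ethanol and poly IC 2 of the 15 were called, near the 10.6% of all genes, Polr2e at 0.94 and Rrn3 at -0.85.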

How the data were processed

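Per the labels, cRNA from mouse peritoneal macrophages was hybridised to MG-U74Av2 arrays, and signals were extracted with Microarray Suite 5.0, with Data Mining Tool 3.0 used for statistics. The deposited values are intensities, 1 per probe set and array, scaled globally by the authors to a target of 2500, which fixes each array's mean, so a change in total RNA cannot be seen. Trimmed means (2% off each end) were 2501.5 to 2502.

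Of 12488 probe sets, 66 were controls, and 10833 of the rest had 1 symbol, 396 several and 1193 none listed. Symbols were updated by Entrez ID (10817 found) through a RefSeq table of GRCm38.p6, used for names only. Probe sets with a mean signal under the 40th percentile (513) were left out, and the brightest set per gene was used, giving 5581 genes. Signals were analysed as log2(signal + 250), which understates changes of dim genes. A mean per group was fitted to all 5 arrays with limma 3.58.1 in R 4.3.3 (lmFit, eBayes with an intensity trend, 2 residual and 7.63 prior degrees of freedom) with Benjamini-Hochberg adjustment across the 5581 genes and calls at adjusted p under 0.05. The fit was tested on simulated data only for poly IC plus ethanol against poly IC, with spreads shuffled across genes. Comparisons with the single naive array were not covered. Figures used matplotlib 3.10.9 in Python 3.11.15.

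Groups came from sample titles. Members and lists were chosen with earlier results of these data known. Named members were the called ones, those fixed by role or paralogy, the highest and lowest by signal, those with discordant probe sets and those that failed the filter, and others named beside them were picked after their values were seen. No set test was run. Promoter windows came from RefSeq tables.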

Additional observations from a re-analysis of the deposited data

How the results depend on the processing

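Alternatives changed the offset, the filter, the scaling, the eBayes trend or the probe set rule. Between poly IC and naive, the main fit called 1 member higher and 2 lower, with 31.8% of all genes called. Without a filter, 0 members were called higher and 1 lower, with 18.3% of all genes called. With arrays centred on their median they were 1 and 0 (28.4%), and with quantile normalization 1 and 4 (30.5%). With eBayes without the trend they were 1 and 1 (27.1%), and with the mean of all probe sets 2 and 1 (31.2%). The 4 with quantile normalization were bright members (Rps19 -0.31, Rpl19 -0.30, Rpsa -0.48 and Rpl7a, which went from 0.08 to -0.29). With the mean of all probe sets Rps4x was 1.39 between poly IC and naive and -0.91 between ethanol and poly IC. In the latter comparison 1 member was then called lower, with 9.55% of all genes called. The members' median between poly IC and naive was 0.158 with centring and -0.189 with quantile normalization, so its sign depends on the scaling. Centring moved the median of all genes from -0.156 to 0.036. Between ethanol and poly IC it was 0.027 without a filter, -0.100 with centring, 0.038 with quantile normalization and 0.030 with the mean of all probe sets. Between ethanol and naive it was 0.021 without a filter, 0.079 with centring and -0.127 with quantile normalization. With 1 array left out, members called between poly IC and naive ranged from 0 to 1 higher and from 0 to 3 lower (3 without either ethanol array, with Rpl13a added), those between ethanol and poly IC from 0 to 1 higher, and those between ethanol and naive from 0 to 1 in either direction. The members' medians then ranged from -0.050 to -0.027, from 0.003 to 0.027 and from -0.007 to -0.003. Group numbers 1 and 2 occur in both treated groups, but the labels do not say that they mark a shared batch, and deviations of same-numbered arrays correlated at 0.0501 over 5581 genes. With the replicate block, fitted on the 4 treated arrays, 0 members were called in either direction and their median was 0.005, while calls among all genes went from 10.6% to 13.9%. The causes of these shifts were not tested.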
